A study of Mus musculus with 2 samples.

Results

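The genes described here are 10 of the 31054 features in the count tables of a mouse rib repair callus: the 4 Notch receptors (*Notch1*, *Notch2*, *Notch3*, *Notch4*), 4 of their ligands (*Jag1*, *Jag2*, *Dll1*, *Dll4*) and 2 transcription factors that Notch activity is known to switch on (*Hes1*, *Hey1*). The rule names these genes and uses no measured value, but they were chosen with earlier results of these data known. Single-cell RNA-seq was run on calluses dissected 4 days after a 3 mm segment of rib was removed. All mice carried *Sox9*:CreER and the *R26*:tdTomato reporter. Control mice were *Smo* flox/+, with 1 floxed copy, and *Smo* cKO mice were *Smo* flox/flox. Both received 3 injections of tamoxifen before the injury, at 8 to 12 weeks of age and with both sexes used. Smo, the transducer of Hedgehog signals, is therefore deleted only in cells in which *Sox9* drives CreER and in their descendants, and control cells can lose their floxed copy. There was 1 library per genotype, made from the pooled calluses of 3 animals, so no test between genotypes was possible. Every interval below is an exact 95% interval that covers counting error only, not differences between animals or libraries.

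Notch receptors are membrane proteins that are activated by ligands on a neighbouring cell. Binding leads to cleavage by ADAM proteases and by gamma-secretase, and the freed intracellular domain joins Rbpj in the nucleus and raises target genes such as those of the Hes and Hey families. In growing vessels Dll4 is the ligand of endothelial tip cells and Notch3 the receptor of mural cells (pericytes and smooth muscle). In muscle, Notch activity keeps satellite cells from differentiating, and in bone it is known to hold skeletal progenitors in an immature state.

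Of 10747 control and 10512 *Smo* cKO barcodes, 10057 and 9507 had 200 or more genes and less than 10% mitochondrial UMIs (unique molecular identifiers, each counting 1 captured RNA), with medians of 8367 and 9092 UMIs. A cell was placed in a class by its UMIs of fixed marker genes, none of them a Notch gene, and each class is named only for its marker list. The 10 named classes with 30 or more cells in both libraries held, in the control and *Smo* cKO library, 6358 and 5017 connective-like, 59 and 60 endothelial-like, 53 and 62 mural-like, 56 and 138 satellite-like and 126 and 217 differentiating muscle-like cells. The hematopoietic classes held 1579 and 1951 macrophage- or monocyte-like, 93 and 121 neutrophil-like, 55 and 53 dendritic-like, 185 and 122 osteoclast-like and 48 and 124 T- or NK-like cells. In both libraries the summed markers of each of these classes were at their highest in the class itself. This is no separate check of the names, since the same lists placed the cells. The libraries shared 613 barcodes, and 608 control and 604 *Smo* cKO cells with such a barcode were kept. Cells that passed the gates of 2 classes, 425 and 517, were left out. Levels are CPM: the UMIs of a gene summed over the cells of a class, per 1000000 UMIs of these cells. A level says how a gene differs between classes or libraries. Levels of different genes are not compared, because gene length can bear on the count and the sources used here do not say which end of the RNA was read.

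*Smo*, the deleted gene, was at 19.1 CPM (1568 UMIs) in control and 12.6 CPM (957 UMIs) in *Smo* cKO connective cells, a log2 ratio of -0.61 (-0.72 to -0.49). In satellite cells it was at 32.4 CPM (21 UMIs) and 6.76 CPM (11 UMIs; log2 -2.26, -3.46 to -1.14). *Smo* was also lower in differentiating muscle cells (19 and 10 UMIs; log2 -1.93, -3.19 to -0.75) and macrophages (15 and 9 UMIs; log2 -1.38, -2.75 to -0.09). In endothelial and mural cells the intervals included 0, and osteoclasts went the other way, with 0 and 5 UMIs. The direction in connective cells matched the labels, but the fall was not confined to them, and its cause in the other classes was not tested. UMIs do not show which exons were read. Reporter UMIs could not separate recombined cells from the rest: *TdTomato* had a UMI in 48 of 6358 control and 110 of 5017 *Smo* cKO connective cells.

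The receptors were divided among the cell classes. *Notch1* (chr2:26457903-26516663, minus strand; coordinates here and below are of the whole gene in mm10 with GENCODE vM21) was highest in endothelial cells, where Notch1 takes part in the choice between tip and stalk cells. It was at 66.1 CPM (47.8 to 89.0; 43 UMIs) in the control and 95.1 CPM (73.8 to 121; 68 UMIs) in the *Smo* cKO library. Both intervals lay above those of macrophages (25.7 CPM in control and 25.4 CPM in *Smo* cKO) and connective cells (11.3 and 11.5 CPM). In control the next level, 33.1 CPM in neutrophils, rested on 5 UMIs and was not separated from that of endothelial cells (10.7 to 77.2 CPM). Macrophages stood above connective cells and osteoclasts (9.69 and 9.70 CPM) in both libraries. Mural cells (20.1 and 16.1 CPM), satellite cells (21.6 and 27.7 CPM) and differentiating muscle cells (24 and 35 UMIs) had overlapping intervals in control. A UMI of *Notch1* was found in 42.4% and 51.7% of endothelial cells, 12.1% and 13.8% of connective cells and 7.79% and 9.33% of macrophages. The order of these last classes reversed when each cell with 1000 or more UMIs was thinned to 1000 UMIs. Then 0.913% and 1.01% of connective cells and 3.15% and 3.58% of macrophages had one. Cells with fewer than 1000 UMIs are left out of every thinned share here and below. Median depths were 10914 and 13566 UMIs in connective cells against 2656 and 3407 UMIs in macrophages, and the thinned shares had the order of the levels.

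*Notch2* (chr3:98013527-98150361, plus strand) was found in each of the 10 classes of the *Smo* cKO library and in all but T or NK cells of the control. Connective cells held 2673 control and 2032 *Smo* cKO UMIs, 76.2% and 66.6% of all that were kept, and their levels were 32.6 and 26.7 CPM. Macrophages had 50.0 and 32.9 CPM and satellite cells 46.2 and 39.3 CPM, while endothelial cells had 13 and 10 UMIs. Mural cells (21.5 and 23.6 CPM), osteoclasts (18.4 and 22.3 CPM) and differentiating muscle cells (18.5 and 17.8 CPM) did not differ from each other beyond their intervals. Neutrophils had the highest level in both libraries, 126 CPM (75.7 to 196) from 19 UMIs and 53.5 CPM (30.6 to 86.9) from 16 UMIs. In the *Smo* cKO library the neutrophil interval overlapped those of satellite cells and macrophages.

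*Notch3* (chr17:32120820-32166852, minus strand) was highest in mural cells. These cells had 206 CPM (144 UMIs) in control and 191 CPM (178 UMIs) in *Smo* cKO, and 77.4% and 85.5% of them had a UMI. Satellite cells came next, with 60.1 and 76.2 CPM, and differentiating muscle cells after them, with 12.3 and 16.1 CPM. The intervals of these 3 classes did not overlap in either library. Connective cells had 5.90 and 5.13 CPM but, being many, held 60.7% and 41.0% of the UMIs. No UMI of *Notch3* was found among the 650833 and 715349 UMIs of endothelial cells. There 3 UMIs per library, a fixed floor and not an exact limit, would be 4.61 and 4.19 CPM. Neutrophils, dendritic cells and T or NK cells had none either, and in macrophages 0.19% and 0.513% of cells had one.

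*Notch4* (chr17:34564268-34588503, plus strand), known as the receptor of endothelium, was at 43.0 and 34.9 CPM in endothelial cells (28 and 25 UMIs). Osteoclasts were second in both libraries, with 8.23 CPM (17 UMIs) and 9.70 CPM (17 UMIs), and 8.11% and 13.1% of them had a UMI against 0.823% and 0.974% of macrophages. Median depths were 10922 and 12921 UMIs in osteoclasts. After thinning, 0.541% of 185 and 2.46% of 122 osteoclasts and 0.268% and 0.158% of macrophages had one. The thinned control share rested on too few osteoclasts with a UMI to set an order. In levels, macrophages had 2.47 and 2.44 CPM and connective cells 0.926 and 1.15 CPM, with intervals below those of osteoclasts in both libraries. The remaining classes had 3 or fewer UMIs of *Notch4* in each library.

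**Figure D1:**
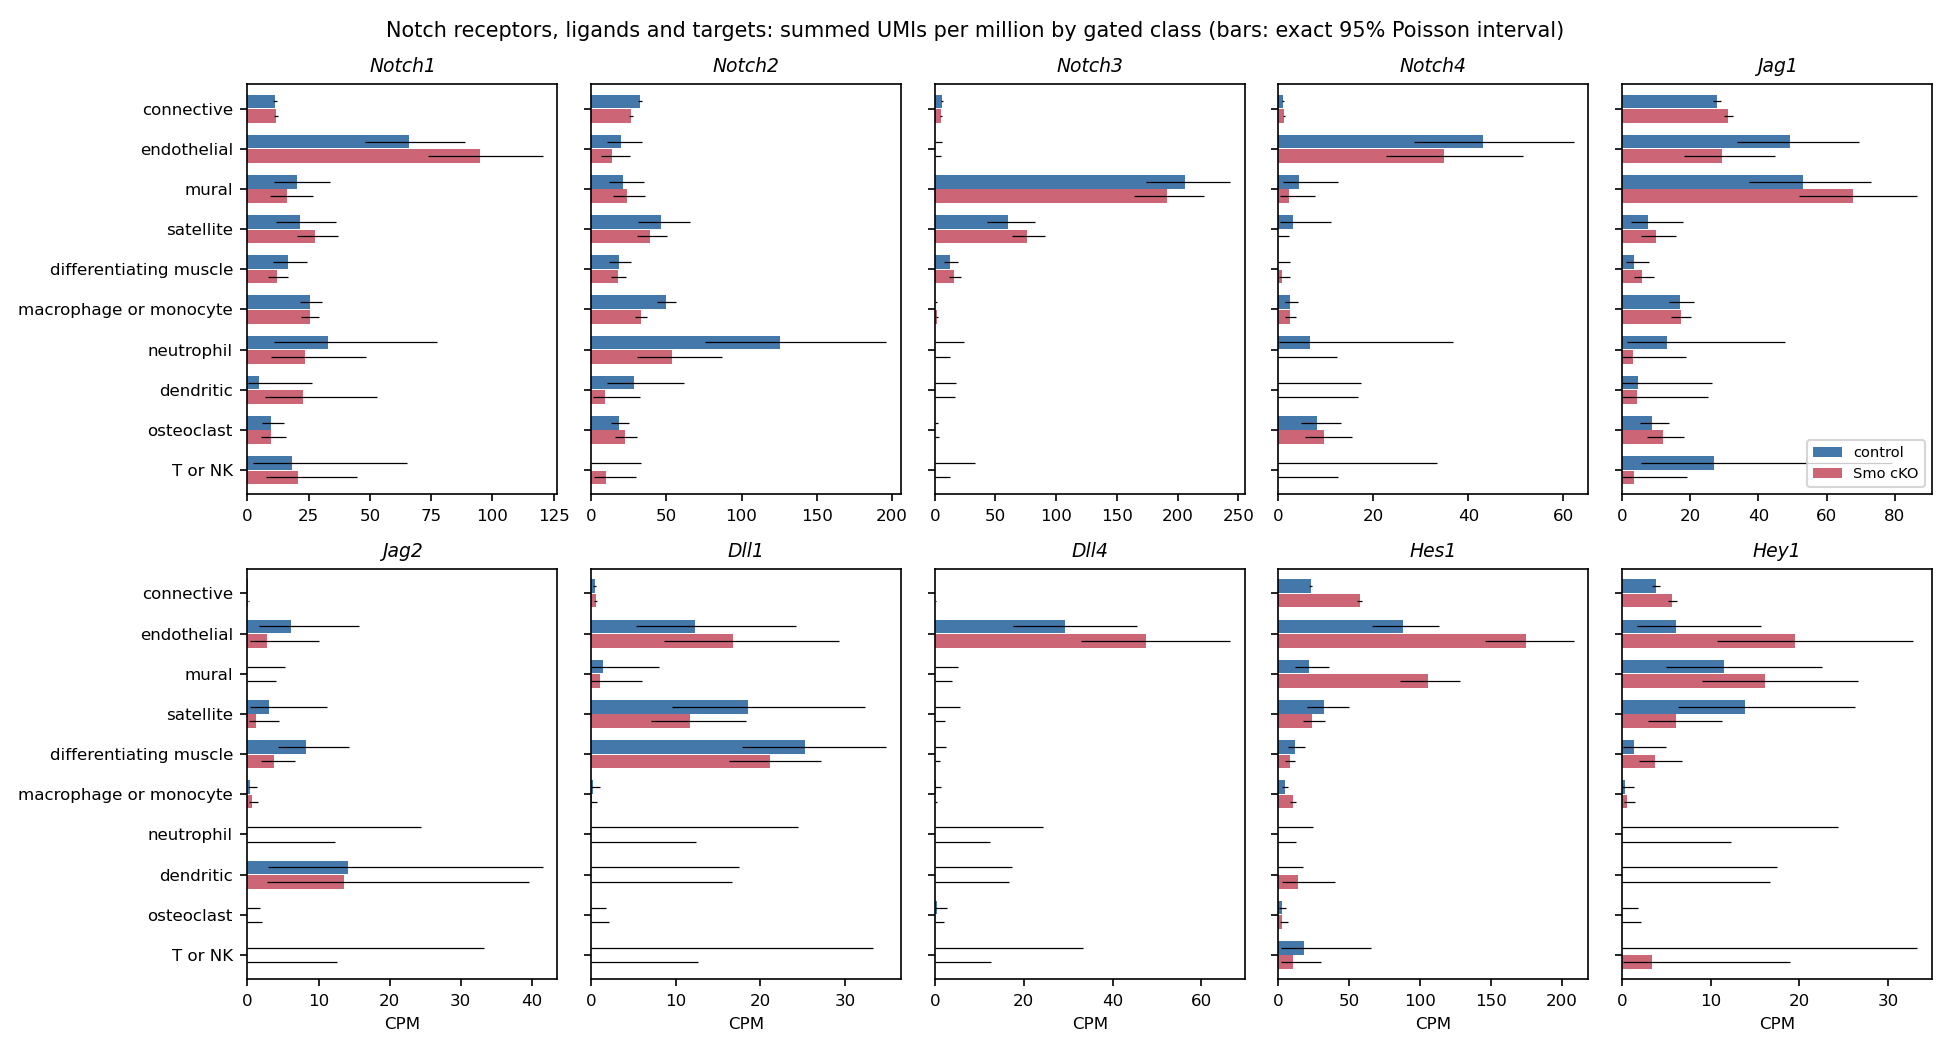
Level of each of the 10 genes in CPM (horizontal axis, from 0, with its own scale for each gene) in 10 marker-gated classes of the control (blue) and *Smo* cKO (red) library; lines are exact 95% Poisson intervals. *Notch3* was at 206 and 191 CPM in mural cells and at 0 in endothelial cells, where *Notch1*, *Notch4* and *Dll4* were at their highest, and *Hes1* was higher in *Smo* cKO connective and mural cells.

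Among the ligands, *Jag1* (chr2:137081456-137116644, minus strand) had 2693 and 3044 UMIs in all kept cells, and connective cells held 85.0% and 78.0% of them. Mural cells had the highest level in both libraries, 53.0 and 67.7 CPM, followed by endothelial cells with 49.2 CPM in control and connective cells with 31.1 CPM in *Smo* cKO. Mural and endothelial cells did not differ beyond their intervals in the control library (37.3 to 73.1 and 33.6 to 69.4 CPM), whereas in *Smo* cKO the interval of mural cells (52.0 to 86.6 CPM) lay above that of endothelial cells (18.2 to 44.9 CPM). Macrophages had 17.1 and 17.2 CPM and osteoclasts 18 and 21 UMIs. Muscle had less than connective cells, at 7.71 and 9.83 CPM in satellite cells and 3.42 and 5.81 CPM in differentiating muscle cells. Within connective cells *Jag1* was lower in tenocyte-like cells, which had 3 or more of 4 tendon markers (23.0 and 24.5 CPM), than in cells with neither tendon nor bone markers (28.7 and 32.5 CPM).

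*Dll1* (chr17:15367354-15376872, minus strand) was highest in differentiating muscle cells. These cells had 25.3 CPM (37 UMIs) and 21.2 CPM (62 UMIs), and 21.4% and 21.7% of them had a UMI. Satellite cells had 18.5 and 11.7 CPM and endothelial cells 12.3 and 16.8 CPM, and these intervals overlapped those of differentiating muscle. Connective cells had 0.402 and 0.538 CPM, and a UMI in 0.519% and 0.817% of cells. *Dll1* is the ligand through which differentiating myoblasts are known to signal to satellite cells. In satellite cells *Notch3* had a UMI in 24 of 56 and 74 of 138 cells and *Dll1* in 7 and 17, with both in 5 and 7.

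*Dll4* (chr2:119325784-119335962, plus strand) had 26 and 40 UMIs in the 10 classes. Endothelial cells held 19 of them in control (29.2 CPM, 17.6 to 45.6) and 34 in *Smo* cKO (47.5 CPM, 32.9 to 66.4). These were 44.2% and 77.3% of its 43 and 44 kept UMIs, and a further 17 and 4 lay in cells that passed 2 gates. In each library 16 endothelial cells had a UMI, of 59 and of 60. *Notch1* was found in 9 and 11 of these 16 cells, and in 16 of the 43 and 20 of the 44 endothelial cells without *Dll4*. Cells with *Dll4* were deeper (medians of 13862 and 19567 UMIs against 6576 and 5312 UMIs), so the shares are not at equal depth. *Jag2* (chr12:112907819-112929776, minus strand) had 45 and 50 UMIs in all, 12 and 11 of them in differentiating muscle cells (8.20 and 3.76 CPM). Its highest level, 14.2 and 13.6 CPM in dendritic cells, rested on 3 UMIs in each library and was not separated from that of differentiating muscle.

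For 9 of the 10 genes the class with the highest level was the same in both libraries. Over all 13738 genes with 30 or more UMIs in each library this held for 49.2%. The exception was *Hey1*, with satellite cells highest in control and endothelial cells in *Smo* cKO. In the control library *Jag2* (27 UMIs) and *Dll4* (26 UMIs in these classes) had fewer than 30, which leaves 7 of 8 members that meet the same minimum.

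With the filters, classes and levels described above, *Hes1* alone of the 10 genes was called higher in *Smo* cKO in any class. *Hes1* (chr16:30064384-30067796, plus strand), a transcriptional repressor and direct target of Notch in many tissues, had 1859 UMIs in control and 4364 UMIs in *Smo* cKO connective cells. Its level was 22.7 CPM (21.6 to 23.7) and 57.2 CPM (55.6 to 59.0), a log2 ratio of 1.34 (1.26 to 1.42). A UMI was found in 16.3% (15.4 to 17.3) of control and 30.2% (28.9 to 31.5) of *Smo* cKO connective cells. *Smo* cKO connective cells were also deeper, and after thinning to 1000 UMIs the shares were 2.31% of 6022 cells (1.94 to 2.72) and 5.35% of 4840 cells (4.73 to 6.02). The higher level was thus seen at equal depth.

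The difference lay in cells with many *Hes1* UMIs as well as in the number of cells with any. Cells with a single UMI made up 10.6% of control and 14.0% of *Smo* cKO connective cells, and cells with 5 or more made up 0.865% (0.652 to 1.12) and 5.10% (4.51 to 5.75). The mean over cells with a UMI was 1.79 and 2.88, and the most in a cell was 13 and 46. UMIs of a gene that are bunched in cells vary more than the Poisson interval allows for.

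The connective cells were then divided by UMIs of both *Mki67* and *Top2a*, which mark cells in division. Among dividing cells *Hes1* was at 22.0 CPM in 929 control and 74.0 CPM in 877 *Smo* cKO cells (log2 1.75, 1.60 to 1.90), and among the others at 22.9 and 50.6 CPM (log2 1.14, 1.05 to 1.24). The 2 intervals did not overlap. Cells with 5 or more UMIs made up 2.37% and 12.4% of the dividing cells and 0.608% and 3.55% of the others. These shares are not at equal depth between the 2 kinds of cell, since dividing cells had medians of 21589 and 23323 UMIs and the others 9740 and 11866 UMIs. Tenocyte-like cells had 27.5 and 71.6 CPM (log2 1.38, 1.18 to 1.59). Osteoblast-like cells, which had 3 or more of 6 bone markers, had 58.2 and 57.9 CPM (log2 -0.01, -0.57 to 0.55) in 54 and 51 cells. In the control library they thus stood above other connective cells and in *Smo* cKO they did not. A single control cell held 13 UMIs, 22.4% of the control UMIs of this class. Cells with 5 or more UMIs numbered 4 in control and 0 in *Smo* cKO. Cells without a UMI made up 64.8% (50.6 to 77.3) and 51.0% (36.6 to 65.2). So few cells do not settle whether *Hes1* differed in this class.

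**Figure D2:**
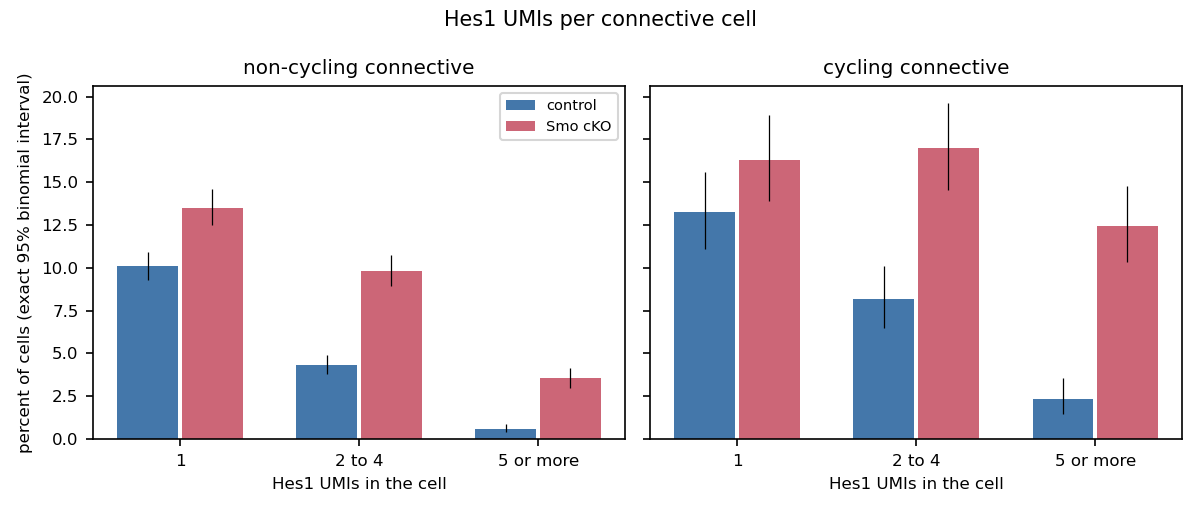
Percent of connective cells with 1, 2 to 4 or 5 or more UMIs of *Hes1* in the control (blue) and *Smo* cKO (red) library, for cells without (left) and with (right) UMIs of both *Mki67* and *Top2a*; lines are exact 95% binomial intervals. Cells with 5 or more UMIs made up 2.37% and 12.4% of dividing cells and 0.608% and 3.55% of the others.

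To compare like connective cells, the 2 libraries were clustered together without the Notch genes. In 10 connective clusters with 50 or more cells in each library, *Hes1* was higher in *Smo* cKO in 9, and at least 2-fold higher in 6. The median log2 ratio over these clusters was 1.12, from -0.13 to 1.96. In the largest, led by *Inhba*, *Cxcl5* and *Tnc*, it was at 12.1 CPM in 1707 control and 47.0 CPM in 759 *Smo* cKO cells. In the cluster led by *Ibsp*, *Mmp13* and *Acan* it was at 35.7 and 107 CPM. The cluster led by *Bglap*, *Sfrp1* and *Actg2* had 40.1 and 103 CPM (log2 1.36, 1.09 to 1.65). *Ibsp* and *Bglap* are among the 6 bone markers, yet in the gated osteoblast-like cells *Hes1* did not differ beyond its interval. The smallest differences were in the clusters led by *Saa3*, *Hp* and *Sfrp1* (26.4 and 31.9 CPM) and by *Igha*, *Igkc* and *Enpp1* (31.7 and 29.0 CPM, from 34 and 17 UMIs). That last cluster is led by immunoglobulin genes, which mark plasma cells, and its place among connective clusters is doubtful. *Hes1* was higher in *Smo* cKO in each of the other 9. Clusters of the same 2 libraries are not replicates, and cells of the 2 libraries were unevenly spread over them (1283 against 103 cells in the *Saa3* cluster).

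*Hes1* was higher in *Smo* cKO outside connective cells too. Mural cells had 15 and 98 UMIs, 21.5 and 105 CPM (log2 2.29, 1.50 to 3.18), and 20.8% and 50.0% of them had a UMI. A single *Smo* cKO cell held 25 of the 98 UMIs, and without the cell with the most UMIs in each library the log2 ratio was 2.14. Thinned to 1000 UMIs, 3.77% of 53 and 3.23% of 62 mural cells had one, so that no difference was detectable at that depth. In cells with at most 2000 genes the log2 ratio was -0.80, a value without an interval. With classes from graph clusters it was 1.47, below the interval of the gated class. Endothelial cells had 57 and 125 UMIs, 87.6 and 175 CPM, just under 2-fold (log2 1.00, 0.53 to 1.47). Here 1 *Smo* cKO cell held 33 UMIs, and without the barcodes found in both libraries the log2 ratio was 0.28. The thinned shares of endothelial cells were 16.1% of 56 and 8.62% of 58 cells, too few cells to set a direction. Macrophages had 23 and 83 UMIs, 4.37 and 10.1 CPM (log2 1.21, 0.53 to 1.94), in 1.08% and 2.97% of cells. Neutrophils had no UMI of *Hes1* in 93 and 121 cells, at median depths of 1185 and 1721 UMIs. The floor of 3 UMIs would be 19.8 and 10.0 CPM there. The 8 connective markers summed to 2020 and 1885 CPM in macrophages. In mural cells they summed to 21857.5 and 24442.5 CPM, against 35215.5 and 31758.7 CPM in connective cells. Mural cells were kept whether or not they passed the connective gate, so mixtures with connective cells can be among them. The part of RNA from other cells in these counts was not tested. Muscle cells had intervals that included 0: satellite cells had 32.4 and 24.0 CPM (log2 -0.43, -1.23 to 0.41) and differentiating muscle cells 11.6 and 7.86 CPM (log2 -0.57, -1.53 to 0.43).

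Early response and heat shock genes, which are known to be induced by tissue dissociation, moved in the same direction in connective cells. All 6 genes looked at, a list chosen after the *Hes1* values were seen, were higher in *Smo* cKO. *Hspa1a* was at 26.4 and 80.9 CPM, *Fos* at 236 and 361, *Junb* at 253 and 392, *Egr1* at 131 and 206, *Jun* at 310 and 399 and *Atf3* at 71.3 and 83.7 CPM. In mural cells, where *Hes1* had a log2 ratio of 2.29, all 6 were higher as well, among them *Hspa1a* at 35.8 and 243 CPM (log2 2.76), *Atf3* (log2 1.07) and *Junb* (log2 0.92). In endothelial cells *Egr1* (log2 1.11), *Fos* (0.89), *Jun* (0.62) and *Atf3* (0.39) were higher, while the intervals of *Junb* and *Hspa1a* included 0. *Egr1* also differed more in dividing connective cells (log2 1.05, 0.96 to 1.13) than in the others (log2 0.58, 0.54 to 0.62), as *Hes1* did. The same held, with intervals that did not overlap, for *Fos* (log2 0.80 and 0.60), *Junb* (0.72 and 0.61) and *Jun* (0.45 and 0.36). The intervals overlapped for *Hspa1a* (log2 1.51 and 1.66) and *Atf3* (0.26 and 0.25). In the gated osteoblast-like cells all 6 were higher, with *Fos* at 313 and 604 CPM and *Hspa1a* at 39.1 and 91.2 CPM. *Hes1* did not differ beyond its interval in these few cells, but was higher in the clusters led by *Ibsp* and by *Bglap*. In both muscle classes the interval of *Hes1* also included 0. In satellite cells *Fos* (log2 0.73), *Junb* (log2 0.73) and *Jun* (log2 0.48) were higher, and the other intervals included 0. In differentiating muscle cells *Jun* (log2 0.50) and *Hspa1a* (log2 0.79) were higher, *Egr1* (log2 -0.40) was lower, and the other intervals included 0. Macrophages were mixed: *Junb* (450.5 and 531 CPM) and *Atf3* (167 and 185 CPM) were higher, *Fos* (353 and 357 CPM) and *Jun* (225 and 221 CPM) had intervals that included 0, and *Egr1* (84.4 and 69.5 CPM) and *Hspa1a* (272 and 214 CPM) were lower. Their part in the *Hes1* difference was not tested. Median mitochondrial shares of connective cells were 2.32% and 2.18%.

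*Hey1* (chr3:8663359-8667256, minus strand), a repressor of the Hey family that is Notch-responsive in endothelium and bone, was also higher in *Smo* cKO connective cells, but by less than 2-fold. It had 314 and 432 UMIs there, 3.83 and 5.67 CPM (log2 0.57, 0.35 to 0.78), in 4.26% and 7.18% of cells, or 0.382% and 0.661% after thinning. Its ratio was above 1 in all 7 connective clusters in which it had 30 or more UMIs, but the interval lay above it in only 5. The median log2 ratio was 0.75, from 0.03 to 3.77, and the highest rested on 1 control UMI. Of connective cells with *Hes1*, 6.26% and 12.9% had *Hey1*, against 3.87% and 4.68% of cells without. Cells with *Hes1* were deeper, with medians of 15204 and 17820 UMIs against 10153 and 11991 UMIs. In the other classes *Hey1* had too few UMIs for a call: 4 and 14 in endothelial, 8 and 15 in mural and 9 and 10 in satellite cells.

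Of the receptors, *Notch2* was lower in *Smo* cKO in several classes. Its log2 ratio was -0.29 (-0.37 to -0.21) in connective cells, but 0.39 among those with at most 2000 genes, and -0.60 (-0.85 to -0.35) in macrophages. In neutrophils it was -1.23 (-2.29 to -0.19), and 14.0% (7.66 to 22.7) of 93 and 12.4% (7.11 to 19.6) of 121 neutrophils had a UMI. The shares thus had overlapping intervals and neither showed nor excluded a fall. After thinning, 8.62% of 58 and 10.9% of 101 neutrophils had one, which leaves out the shallower cells. In 10 connective clusters *Notch2* was lower in 9, with a median log2 ratio of -0.39, but the interval lay below 0 in only 5. The lowest ratio, -0.92 from 45 and 13 UMIs, was in the doubtful cluster led by *Igha*. In connective cells *Notch1* stayed close to its control level (log2 0.03, -0.11 to 0.16). *Notch3* was slightly lower there (log2 -0.20, -0.40 to -0.01), with a median over 8 clusters of 0.03. *Notch3* in mural cells had a log2 ratio of -0.11 (-0.44 to 0.22). *Jag1* was slightly higher in connective cells (log2 0.16, 0.08 to 0.24), with a median over 9 clusters of 0.03. In endothelial cells the intervals of *Notch1* (log2 0.52, -0.05 to 1.11), *Notch4* (-0.30, -1.14 to 0.53), *Dll4* (0.70, -0.15 to 1.60) and *Jag1* (-0.74, -1.61 to 0.09) all included 0 and also a 2-fold difference, from at most 68 UMIs a library.

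**Figure D3:**
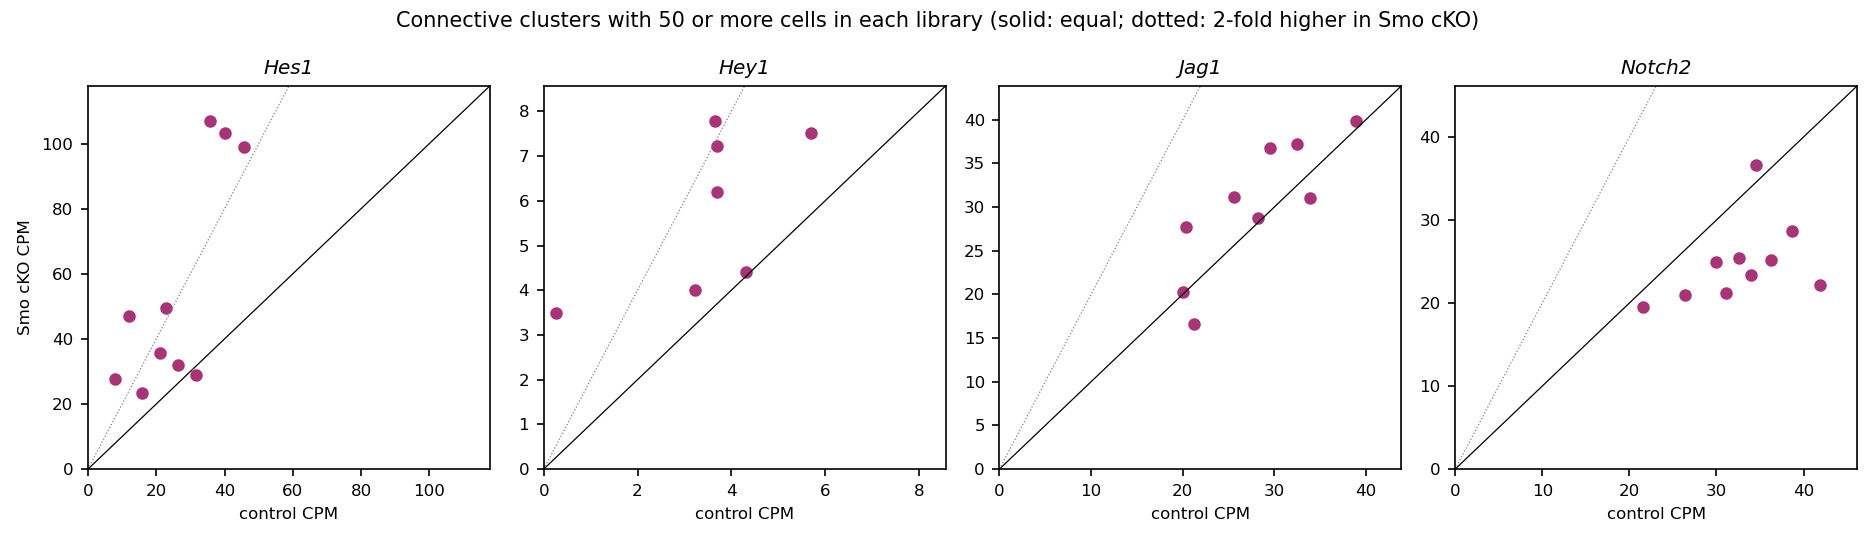
Control level against *Smo* cKO level, both in CPM, of *Hes1*, *Hey1*, *Jag1* and *Notch2* in connective clusters with 50 or more cells in each library (1 point per cluster; solid line, equal levels; dotted line, 2-fold higher in *Smo* cKO). *Hes1* lies above the solid line in 9 of 10 clusters and *Notch2* below it in 9 of 10.

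A difference was called where a gene had 30 or more UMIs in a class over both libraries and its level differed at least 2-fold. The 10 genes gave 37 pairs of gene and class with 30 or more UMIs. Of these pairs 3 were called higher in *Smo* cKO, all of them *Hes1*, and 1 was called lower. In connective cells 1 of 8 members tested was called higher, where 2.09% of 14468 genes were higher and 1.47% lower. In mural cells it was 1 of 4 (all genes 3.51% higher and 2.33% lower), and in macrophages 1 of 5 (2.39% and 1.02%). In neutrophils the 1 gene tested, *Notch2*, was called lower, where 7.2% of 1292 genes were lower and 4.33% higher. None of 5 was called in endothelial cells (2.61% of all genes higher and 1.89% lower), in satellite cells (4.02% and 1.13%) or in differentiating muscle (2.86% and 1.45%), and none of 4 in osteoclasts (2.2% and 0.856%). No member reached 30 UMIs in dendritic cells (6.16% and 1.44%) or in T or NK cells (7.01% and 2.89%). The median log2 ratio in connective cells was 0.24 over the 8 members and 0.01 over all genes. With 1 to 8 members tested in a class, 1 call more or less sets the share, and nothing is read from it for the members together.

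**Figure D4:**
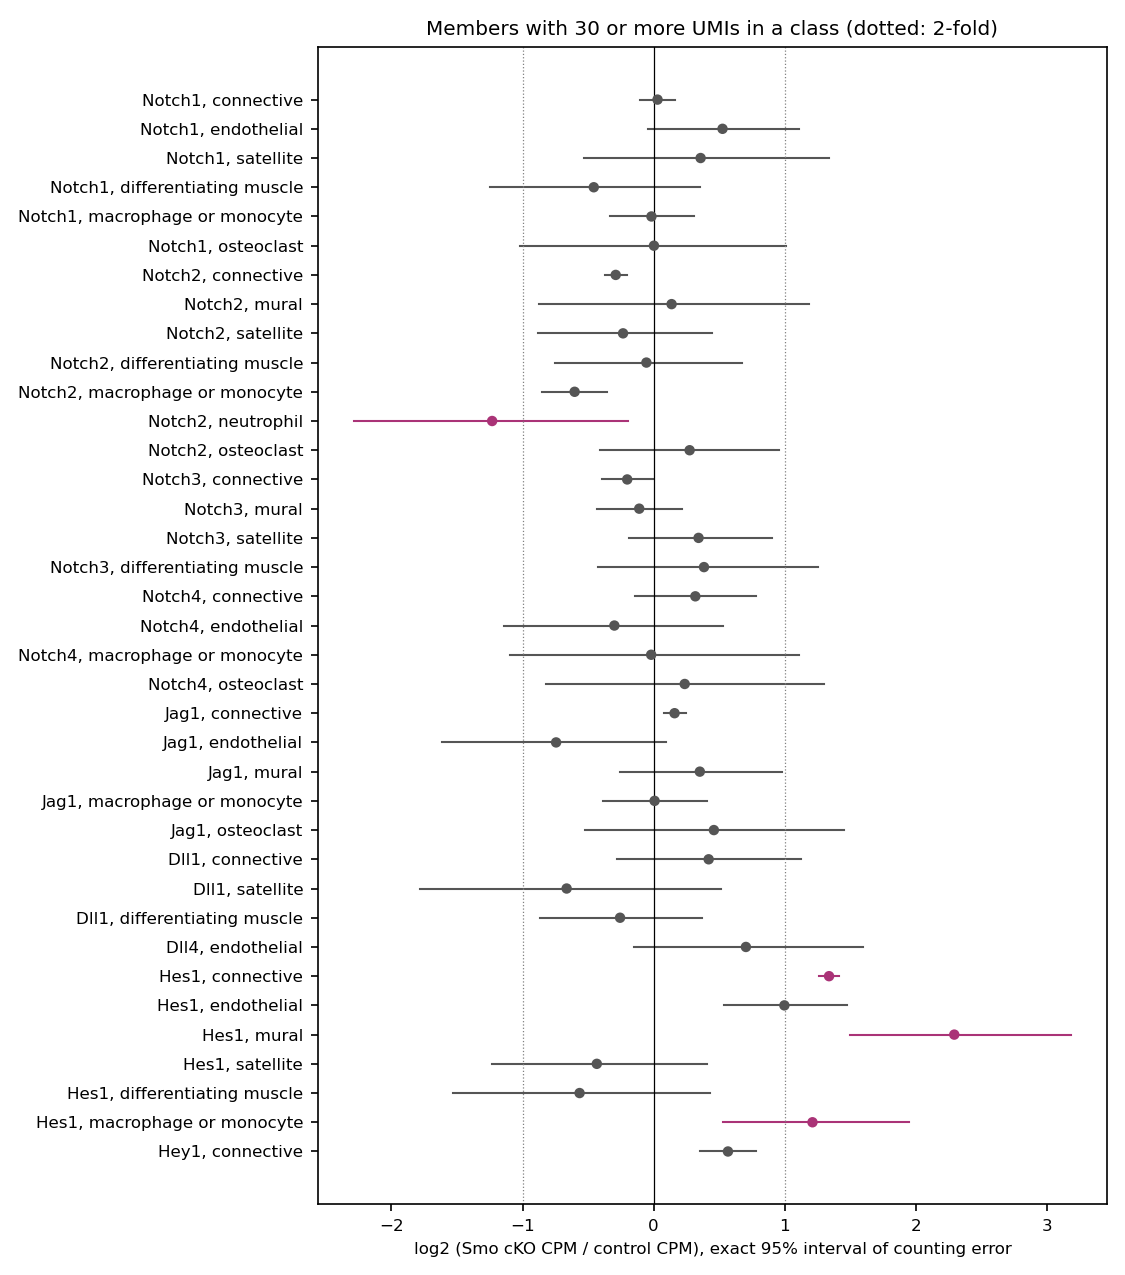
Log2 ratio of the *Smo* cKO over the control level for the 37 pairs of gene and class with 30 or more UMIs (points) with exact 95% intervals of counting error (lines); purple marks pairs past 2-fold (dotted lines). *Hes1* was past 2-fold higher in connective, mural and macrophage classes, and *Notch2* past 2-fold lower in neutrophils.

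Beyond the 10 genes, 47 other genes of the pathway were examined from a fixed list of ligands, enzymes, cofactors and targets. In connective cells 40 of them had 30 or more UMIs, of which 4 were called higher and none lower, beside 2.09% of all genes higher and 1.47% lower. So few calls set the share, and nothing is read from it for the pathway as a whole. Targets made up 2 of these 4. *Heyl*, a further Hey family gene, had 350 and 712 UMIs, 4.27 and 9.34 CPM (log2 1.13, 0.94 to 1.32). *Nrarp*, a target that feeds back on Notch signalling, had 14 and 32 UMIs (log2 1.30, 0.35 to 2.32). *Hey2*, by contrast, was at 1.41 and 1.14 CPM (log2 -0.31, -0.73 to 0.10), and *Hes5* had 1 and 8 UMIs. *Rbpj*, the DNA-binding partner of all 4 receptors, was at 76.4 and 78.1 CPM (log2 0.03, -0.02 to 0.08). The other calls in connective cells were *Dlk1*, a non-canonical ligand, at 10.4 and 31.3 CPM (log2 1.59, 1.47 to 1.70), and *Dtx3l*, a Deltex family ubiquitin ligase that is also induced by interferon, at 6.44 and 12.9 CPM (log2 1.01, 0.85 to 1.16). In dividing connective cells *Dlk1* was at 6.48 and 42.0 CPM.

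In the other classes *Heyl*, *Nrarp* and *Hey2* were found in mural or muscle cells more than in endothelium. *Heyl* was highest in satellite cells, with 87.9 and 129 CPM (log2 0.55, 0.13 to 1.00), and was at 41.6 and 76.3 CPM in mural cells (log2 0.88, 0.23 to 1.55). In differentiating muscle it had 13 and 96 UMIs, 8.89 and 32.8 CPM (log2 1.88, 1.04 to 2.84). The interval of *Hes1* in the same cells included 0, and its sign changed with the settings. *Nrarp* was highest in mural cells, with 76.0 and 92.4 CPM (log2 0.28, -0.23 to 0.80). *Hey2* had 8.60 CPM in mural cells of both libraries and no UMI in endothelial cells. In mural cells with *Notch3*, *Heyl* had a UMI in 18 of 41 control and 29 of 53 *Smo* cKO cells, and in those without *Notch3* in 0 of 12 and 5 of 9. The other calls in muscle were *Dtx3l* (log2 1.56 in satellite and 1.69 in differentiating muscle cells), *Adam17*, a protease (log2 1.30, 0.04 to 2.83, in satellite cells), and *Poglut1*, an enzyme that adds glucose to Notch receptors (log2 1.17, 0.04 to 2.49, in differentiating muscle). In satellite cells 2 of 23 pathway genes tested were called higher, beside 4.02% of all genes, and in differentiating muscle 3 of 28, beside 2.86%. None was called lower in any class.

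**Figure D5:**
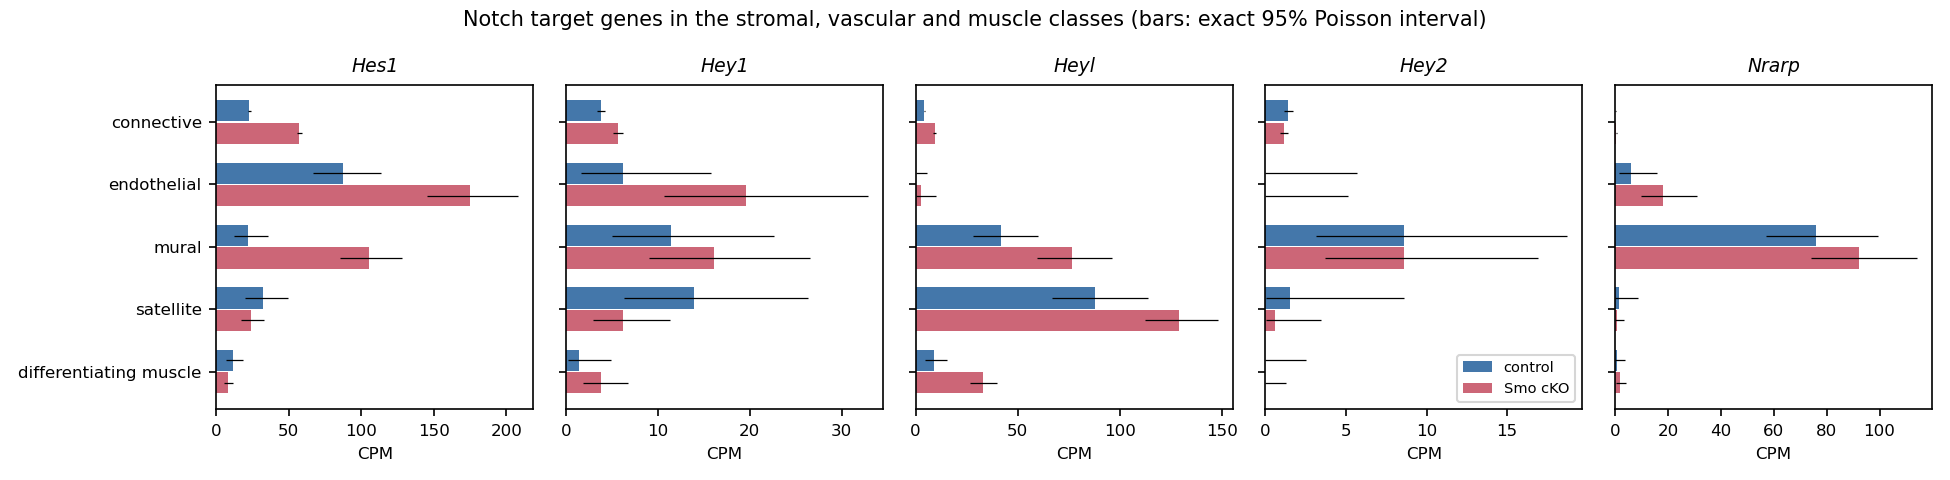
Level in CPM (horizontal axis, from 0, with its own scale for each gene) of 5 Notch target genes in 5 classes of the control (blue) and *Smo* cKO (red) library, with exact 95% Poisson intervals. *Hes1* and *Heyl* were higher in *Smo* cKO connective and mural cells, whereas *Hey2* was not.

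Genes with a similar distribution were sought among 12129 genes over 20 points, 10 classes in each of 2 libraries, by the Pearson correlation of log2(CPM + 1). The points share libraries, and sparse classes add counting noise. The 3 nearest to *Notch3* were *Bdnf* (r = 0.964), *Map3k7cl* (0.945) and *Adcy2* (0.941). For *Dll1* they were *Chrnb1* (0.953), *Gal* (0.948) and *Palmd* (0.948), and for *Notch4* they were *Tmem204* (0.864), *Scarf1* (0.844) and *Msn* (0.840). Nearest to *Hes1* were *Pdlim1* (0.923), *Endod1* (0.905) and *Cks1b* (0.905), and nearest to *Hey1* were *Cdc42ep1* (0.965), *Timp3* (0.930) and *Cald1* (0.929). *Notch1* followed *Cds2* (0.791), *Mapk3* (0.787) and *Plekhg1* (0.776), *Notch2* followed *Zswim4* (0.896), *Mboat7* (0.893) and *Rab28* (0.875), and *Jag1* followed *Fndc3b* (0.872), *Map6* (0.870) and *Sav1* (0.863). *Jag2* and *Dll4* had too few UMIs for this search.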

How the data were processed

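Calluses were digested with collagenase and dispase, dead cells were removed, and 10x Genomics libraries were made. Per the labels, the authors aligned reads to mm10 with Cell Ranger 3.0.2 and deposited raw UMI counts per gene and barcode, with no normalization. Kept libraries held 104189394 (control) and 110863278 (*Smo* cKO) UMIs. Cells with 200 or more genes and under 10% mitochondrial UMIs were kept, with no upper limit on genes. The members and lists were chosen with earlier results of these data known. Marker lists and the rule for named genes (all members, pathway genes past 2-fold, *Hey2*, *Heyl*, *Hes5*, *Nrarp*, *Rbpj*, and the 3 nearest genes by correlation) were fixed, while gate levels were set after the marker distributions were seen: 100 connective, 5 hematopoietic, endothelial or mural and 3 muscle UMIs per 10000. Mural cells can also carry connective markers, so that gate was not applied to them. Ratios have the exact interval of 2 Poisson counts and shares Clopper-Pearson intervals. The fold rule was tried on counts drawn from Poisson distributions. Such counts are not bunched in cells as *Hes1* UMIs are, so the trial cannot show how well the intervals hold for these data. Scrublet marked 0 and 2 cells as doublets and so had not worked; cells passing 2 gates were left out. Promoter and protein sequences of the members were not used here. Tools were Python 3.11.15, scipy 1.17.1 and scanpy 1.11.5.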

Additional observations from a re-analysis of the deposited data

How the results depend on the processing

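With 1 library per genotype, no alternative shows how animals vary. The count of 3 pairs higher in *Smo* cKO became 2 in cells with at most 2000 genes (*Hes1* in mural cells was lost), 4 with cells weighted equally, 4 without the 1% of cells with the most UMIs of a gene, 5 with classes from graph clusters and 12 with no filter beyond 1 UMI. Graph clusters added *Hes1* in osteoclasts, which had too few UMIs for a call in the gated class, and *Notch3* in differentiating muscle cells (log2 1.09). The pair added without that 1% was *Notch4* in connective cells. Only 1.16% and 1.65% of these cells had a UMI of it, so leaving out 1% removed most of them, and nothing is read from that call. The count of 1 pair lower became 0 with graph clusters, 0 at 100 or more UMIs, 2 with cells weighted equally and 13 with no filter. The number of genes with the same highest class fell from 9 to 5 in cells with at most 2000 genes, the study's limit, which kept 4223 and 3859 cells and left 11 pairs to test. Under that limit *Hes1* in mural cells turned to -0.80 and in endothelial cells to -1.29 on the log2 scale, both without an interval. The endothelial value was past 2-fold but not called, so it had fewer UMIs than a call needed. No direction is read from it. *Notch2* in connective cells became 0.39 under the same limit, and 17 of 32 log2 ratios, *Hes1* in mural cells among them, moved beyond their intervals. Only 11 pairs had enough UMIs for a call under this limit, so the rest of these ratios rested on fewer. *Hes1* in connective cells ranged from 1.09 to 1.42 on the log2 scale over 10 settings, and stayed past 2-fold in each. *Hes1* in macrophages ranged from 1.01 to 1.61 and *Notch2* in neutrophils from -1.75 to -0.89. With cells weighted equally, *Dll4* in endothelial cells turned from 0.70 to -0.88, and *Notch1* there became 1.33. Leaving out barcodes found in both libraries, the 5% of cells with the highest Scrublet scores, or the 1% with the most UMIs of a gene was chosen after seeing the data; these moved 1, 0 and 1 of 37, 37 and 25 log2 ratios beyond their intervals. Without the mitochondrial filter or with the median gene ratio of a class set to 1, none of 37 did. Placing cells that passed 2 gates moved *Hes1* in differentiating muscle from -0.57 to 0.66. It was 0.11 with classes from graph clusters and 0.28 in cells with at most 2000 genes. The planned run without called doublets could not be made, since Scrublet called almost none. No paired analysis was possible because each genotype had 1 library. Depth limits *Jag2*, *Dll4* and all calls in the small classes.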
